A study of Mus musculus with 12 samples.

Results

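The B-lineage transcription factors described here are 9 genes taken by name from the 32285 genes of the deposited table, namely Ebf1, Pax5, Foxo1, Pou2af1, Spib, Irf4, Bach2, Bcl11a and Lef1. They were taken by name, with no threshold on a measured value. All 9 were found once, and all 9 passed the filter on low counts, which kept 13367 genes. Pou2af1 and Lef1 passed only through their levels in lymphoid progenitors, and Pax5 and Spib reached the filter's minimum in only 1 library of multipotent progenitors each.

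RNA was sequenced from Ly6d- CLPs, common lymphoid progenitors sorted as negative for the early B-lineage surface protein Ly6d, and from Flk2+ MPPs, multipotent progenitors that give rise to them. Both came from lineage-depleted bone marrow of wild-type C57BL6/J mice, at 1MO and at 3MO, with 3 independent repeats of each cell type at each age and 12 libraries in all. The 1MO CLP, 3MO CLP, 1MO MPP and 3MO MPP groups therefore share strain, genotype and tissue, and differ in age and sort gate. Cells were sorted mouse by mouse, and whether any library pooled mice was not stated in the sources used here. The library totals ran from 8889083 to 20677785 estimated counts, with a median of 13208993. Levels are given below as CPM, counts scaled to the library total, after normalization for library composition by TMM, each with its SD over 3 libraries.

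A B cell is made from a lymphoid progenitor in steps, and each step is tied to transcription factors. E proteins and IL-7 receptor signals, with Foxo1, bring on Ebf1, which opens the chromatin of B-lineage genes and turns on Pax5. Pax5 then closes off the other lineages, while Spib and Irf4 act as partners of octamer, E and ETS factors at B-cell enhancers, and Pou2af1 is a coactivator of the octamer factors. Bach2 is a repressor that holds back myeloid and plasma-cell programs, Bcl11a is a zinc finger factor that lymphoid progenitors need, and Lef1 is an HMG-box factor of the Wnt pathway that pro-B cells and T cells express. Ly6d- CLPs keep both B and T potential, and in the usual scheme B-lineage priming begins at the transition to Ly6d+ cells.

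The 9 genes lie on 6 mouse chromosomes (GRCm38, GENCODE M21). Ebf1 is at chr11:44617317-45008091 on the plus strand and Bcl11a at chr11:24078056-24174123 on the plus strand. Pax5 is at chr4:44524757-44710487 on the minus strand and Bach2 at chr4:32238804-32586108 on the plus strand. Foxo1 is at chr3:52268336-52353221 and Lef1 at chr3:131110471-131224356, both on the plus strand. Spib is at chr7:44525993-44532071 on the minus strand, Pou2af1 at chr9:51213708-51240080 on the plus strand and Irf4 at chr13:30749226-30766976 on the plus strand. Antisense and intronic genes that overlap Ebf1, Pax5, Foxo1, Pou2af1, Bach2, Bcl11a and Lef1 and are in the table held at most 8 counts each over the 12 libraries, against 67 to 73772 counts for the members they overlap.

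The promoter windows of Ebf1, Pax5, Foxo1 and Spib are shown because these are the members whose levels differed between the sorted populations. Each window runs from 250 bases before to 50 bases after a RefSeq transcription start (GRCm38.p6), 5′ to 3′ on the gene's strand, and capitals mark the letters of a searched motif on either strand. The second Ebf1 window is an alternative start, and the Pax5 start lies 207 bases upstream of the GENCODE gene start.
Ebf1, chr11:44617850-44618149: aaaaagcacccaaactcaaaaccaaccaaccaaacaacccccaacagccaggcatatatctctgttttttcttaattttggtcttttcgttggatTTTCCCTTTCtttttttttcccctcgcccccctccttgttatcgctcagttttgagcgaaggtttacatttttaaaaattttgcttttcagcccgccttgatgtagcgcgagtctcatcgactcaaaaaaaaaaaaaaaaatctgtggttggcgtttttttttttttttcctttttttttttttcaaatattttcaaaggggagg
Ebf1, chr11:44619978-44620277: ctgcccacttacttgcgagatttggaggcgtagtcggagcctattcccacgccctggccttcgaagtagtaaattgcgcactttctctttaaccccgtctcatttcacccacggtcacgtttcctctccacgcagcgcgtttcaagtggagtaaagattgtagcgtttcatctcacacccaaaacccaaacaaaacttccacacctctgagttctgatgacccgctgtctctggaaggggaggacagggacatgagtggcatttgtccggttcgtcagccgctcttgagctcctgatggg
Pax5, chr4:44710645-44710944: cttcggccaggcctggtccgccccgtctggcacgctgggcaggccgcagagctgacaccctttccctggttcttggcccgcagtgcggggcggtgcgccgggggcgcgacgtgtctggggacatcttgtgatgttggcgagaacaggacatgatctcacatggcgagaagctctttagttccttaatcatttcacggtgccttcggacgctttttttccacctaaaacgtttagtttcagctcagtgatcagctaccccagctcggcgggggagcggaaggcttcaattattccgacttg
Foxo1, chr3:52268087-52268386: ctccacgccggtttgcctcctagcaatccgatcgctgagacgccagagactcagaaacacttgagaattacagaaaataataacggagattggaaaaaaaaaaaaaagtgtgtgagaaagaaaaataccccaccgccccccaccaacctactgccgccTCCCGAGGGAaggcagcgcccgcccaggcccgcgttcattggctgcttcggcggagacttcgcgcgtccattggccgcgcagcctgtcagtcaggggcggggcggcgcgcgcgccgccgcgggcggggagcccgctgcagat
Spib, chr7:44532022-44532321: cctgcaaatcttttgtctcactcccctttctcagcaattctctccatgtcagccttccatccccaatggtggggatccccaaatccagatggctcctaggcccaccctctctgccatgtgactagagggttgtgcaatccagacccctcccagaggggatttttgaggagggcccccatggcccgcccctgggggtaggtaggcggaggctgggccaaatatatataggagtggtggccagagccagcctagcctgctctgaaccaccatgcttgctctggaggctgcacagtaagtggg

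Among the 13 windows of the 9 members, the EBF motif CCCNNGGGA was found only in the Foxo1 window, where 2 overlapping matches on opposite strands began at positions -92 and -91 from the start. The IRF motif (GAAA, any 2 bases, GAAA) was found only in the first Ebf1 window, at position -155 from the start, on the opposite strand. The E protein motif CAGGTG was found only in 1 Lef1 window, 30 bases after the start. These letters occur in 6.56%, 3.44% and 20.2% of all 32851 mouse windows of this length. The octamer ATTTGCAT (1.74% of windows), the PU.1 motif GAGGAAGT (3.20%), the forkhead motif TGTTTAC (3.65%) and the TCF/LEF motif CTTTGAT (3.73%) were in none of the members' windows. A match describes letters and not a bound site.

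Levels of different members can be compared only per length, and per kilobase of merged exon the order in CLPs began with Bcl11a and Bach2. In 1MO CLPs Bcl11a stood at 36.3 ± 2.54 CPM per kilobase (SD, n = 3) and Bach2 at 14.4 ± 0.984. Foxo1 at 6.75 ± 1.10 and Ebf1 at 6.53 ± 1.21 CPM per kilobase overlapped, and with the longest transcript as the length Ebf1 (10.7) came before Foxo1 (6.75). Spib followed at 2.62 ± 0.693, Pax5 at 2.03 ± 1.20 and Irf4 at 1.32 ± 0.379 CPM per kilobase, and each of these overlapped the next. Pou2af1 (0.743 ± 0.401) and Lef1 (0.125 ± 0.113) were lowest, and Pou2af1 overlapped Irf4 but not Lef1. At 3MO the order in CLPs was the same except that Irf4 (0.565 ± 0.148) and Pax5 (0.540 ± 0.757) changed places, and their ranges overlapped. With the longest transcript as the length Pax5 (0.598) stayed before Irf4 (0.581) at 3MO. In MPPs of both ages the order was Bcl11a, Bach2, Foxo1 and Irf4, of which only Bach2 and Foxo1 at 3MO overlapped, with the other 5 members at no more than 0.244 CPM per kilobase on average. Flk2+ MPPs held Bcl11a at 33.2 ± 3.39 and Foxo1 at 3.76 ± 0.736 CPM per kilobase at 1MO, with Ebf1 and Pax5 among the other 5.

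**Figure D1:**
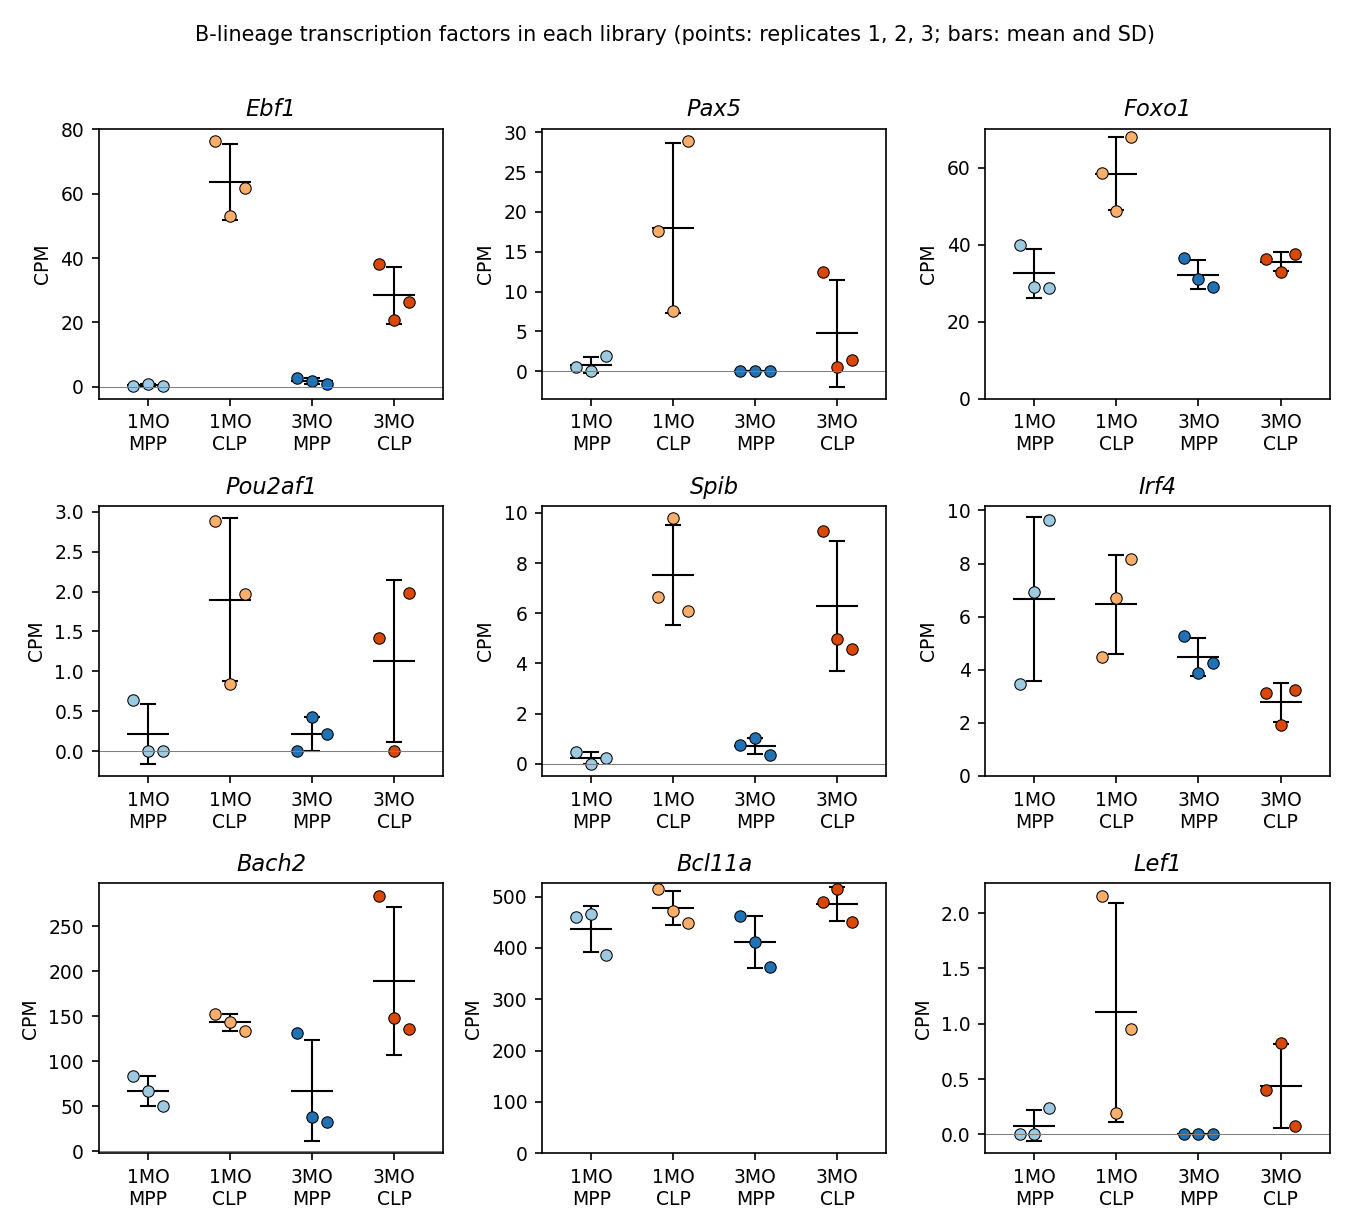
Level of each member in CPM (vertical axes, linear and scaled for each gene) in the 4 groups on the horizontal axis, with points for replicates 1, 2 and 3 from left to right and black bars for the mean and SD (n = 3). Ebf1, Pax5 and Spib were near 0 in MPPs and higher in CLPs, Bcl11a was similar in every group, and Bach2 was highest in replicate 1 of the 3MO groups.

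The first comparison asked how the members differ between Ly6d- CLPs and Flk2+ MPPs at each age. Ebf1 and Spib were higher in CLPs at both ages, Foxo1 at 1MO and Pax5 at 3MO, and no member was called lower at either age. At 1MO edgeR's quasi-likelihood test called 3 of 9 members at a Benjamini-Hochberg adjusted p under 0.05, all higher in CLPs, against 2.57% of all 13367 genes called higher and 5.38% called in either direction. At 3MO it called 3 of 9, again all higher, against 2.73% higher and 6.07% in either direction. Spib and Pax5 could pass the filter only with their CLP libraries, so these counts describe the members and do not set them apart from other genes. The 2 members called at both ages were Ebf1 and Spib, where 1.84% of all genes were called higher at both. In sorted bulk samples, more cells that express a gene and more RNA per cell cannot be told apart.

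Ebf1, the factor that specifies the B lineage, gave the widest difference among the members at 1MO. Its level was 76.3, 53.0 and 61.9 CPM in the 3 libraries of 1MO CLPs and 0.402, 0.878 and 0.181 CPM in those of 1MO MPPs. All 3 CLP libraries were far above every MPP library, which held 5, 8 and 3 counts. The fitted log2 fold change was 7.14 ± 0.537 (SE), with an edgeR adjusted p of 1.73e-06. At 3MO the level was 38.2, 20.8 and 26.3 CPM in CLPs and 2.85, 1.94 and 0.921 CPM in MPPs, again with no overlap, and the MPP libraries held 27, 27 and 13 counts. The log2 fold change at 3MO was 3.92 ± 0.445 (edgeR adjusted p = 7.58e-05). MPPs had on average 0.764% of the CLP level of Ebf1 at 1MO and 6.70% at 3MO.

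Pax5, the factor of B-lineage commitment, varied widely among CLP libraries. It was at 17.5, 7.56 and 28.9 CPM in 1MO CLPs and at 12.5, 0.498 and 1.34 CPM in 3MO CLPs, so that 1 of the 3 libraries held most of the 3MO signal (124 of 150 counts). In 1MO MPPs it was at 0.481, 0 and 1.87 CPM, and each of the 3 libraries of 3MO MPPs held 0 counts. CLP and MPP libraries did not overlap at either age. At 1MO the log2 fold change of Pax5 was 4.42 ± 1.25 and missed the threshold (edgeR adjusted p = 0.0591), while edgeR called it with no filter beyond 1 count (adjusted p = 0.000357) and with only the 6 libraries compared (0.0112). Pax5 was also called at 1MO with the replicate number as a block in the model (edgeR adjusted p = 0.0115), and with a block by age and number (0.00404). At 3MO Pax5 was at least 59.8-fold higher in CLPs, computed against a floor of 3 counts over the 3 MPP libraries, with an edgeR adjusted p of 0.0189. That call was lost without replicate 1 of the 3MO CLPs (edgeR adjusted p = 0.0661), and also without replicate 2 (0.0612) or replicate 3 (0.0558) of the 3MO MPPs.

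Foxo1, a forkhead factor upstream of Ebf1, Il7r and the Rag genes, was expressed in both populations. It was at 58.7, 48.9 and 68.0 CPM in 1MO CLPs and at 39.9, 29.0 and 28.8 CPM in 1MO MPPs. The groups did not overlap, and Foxo1 was 1.80-fold higher in CLPs (log2 fold change 0.84 ± 0.219, edgeR adjusted p = 0.0334). At 3MO the levels were 36.2, 32.9 and 37.7 CPM in CLPs and 36.5, 31.2 and 29.1 CPM in MPPs, which overlapped. The log2 fold change of Foxo1 at 3MO was 0.14, with a 95% interval of -0.32 to 0.61 and an edgeR adjusted p of 0.812. The 1MO call was lost without replicate 1 or 3 of the 1MO CLPs (edgeR adjusted p = 0.0742 and 0.171) and without replicate 2 or 3 of the 1MO MPPs (0.157 and 0.151).

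Of the coactivator and partner factors, Spib differed between the populations and Pou2af1 and Irf4 did not pass the test. Spib, an ETS factor close to PU.1, was at 6.66, 9.78 and 6.09 CPM in 1MO CLPs and at 0.482, 0 and 0.241 CPM in 1MO MPPs. It was at 9.28, 4.98 and 4.59 CPM in 3MO CLPs and at 0.740, 1.01 and 0.354 CPM in 3MO MPPs. At both ages every CLP library was above every MPP library. The log2 fold change of Spib was 4.85 ± 0.904 at 1MO (edgeR adjusted p = 0.00359) and 3.15 ± 0.820 at 3MO (edgeR adjusted p = 0.0320). The 1MO call held in all 12 fits that left out 1 library, and the 3MO call was lost in 6 of them, those without 1MO CLP replicate 2, 3MO CLP replicate 1 or 3, or any 1 of the 3MO MPPs (edgeR adjusted p = 0.0507 to 0.111). The 3MO call was also lost with only the 6 libraries compared (edgeR adjusted p = 0.0889) and with a block by age and replicate number (0.0618). Without all 4 libraries of replicate number 2 or 3 the 1MO call was lost as well (edgeR adjusted p = 0.107 and 0.0795). The 3MO call was lost without replicate number 1, 2 or 3 (edgeR adjusted p = 0.122, 0.142 and 0.232).

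Pou2af1, the octamer coactivator, was near the floor of the measurement everywhere. It was at 2.88, 0.840 and 1.97 CPM in 1MO CLPs and at 0.643, 0 and 0 CPM in 1MO MPPs, and at 1.41, 0 and 1.98 CPM in 3MO CLPs and 0, 0.432 and 0.213 CPM in 3MO MPPs. The groups did not overlap at 1MO and overlapped at 3MO. The 95% interval of its log2 fold change ran from -0.79 to 6.95 at 1MO and from -1.48 to 6.07 at 3MO, so that no difference was detected and a large one was not excluded. Irf4, an IRF family factor, was the member without a higher level in CLPs. It was at 4.50, 6.72 and 8.19 CPM in 1MO CLPs and at 3.46, 6.91 and 9.64 CPM in 1MO MPPs, which overlapped throughout. At 3MO it was at 3.13, 1.94 and 3.24 CPM in CLPs and at 5.29, 3.88 and 4.25 CPM in MPPs, so that all 3 CLP libraries were below the MPP libraries. This Irf4 difference did not pass the test (log2 fold change -0.69 ± 0.544, edgeR adjusted p = 0.565), and 11.7% of all genes had 3MO CLP libraries all below the 3MO MPP libraries.

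Bach2, the repressor, was higher in CLP than in MPP libraries on average at both ages, and did not pass the test at either, while with no filter beyond 1 count edgeR called it at both (adjusted p = 0.00456 and 7.48e-05). With the replicate number as a block in the model edgeR also called Bach2 at 1MO and 3MO (adjusted p = 0.0174 and 0.00179). The same held with a block by age and number (edgeR adjusted p = 0.00424 and 0.000258). It was at 153, 143 and 133 CPM in 1MO CLPs and at 83.7, 67.1 and 50.6 CPM in 1MO MPPs, without overlap (log2 fold change 1.09 ± 0.425, edgeR adjusted p = 0.189). At 3MO it was at 284, 148 and 136 CPM in CLPs and at 132, 38.0 and 32.0 CPM in MPPs (2.83-fold, edgeR adjusted p = 0.0510, with a 95% interval of the log2 fold change of 0.59 to 2.41). Replicate 1 was the highest of its group in all 4 groups, and at 3MO it was far above the other two in both cell types. Without replicate 1 of the 3MO MPPs, Bach2 was called at both ages, with log2 fold changes of 1.09 (edgeR adjusted p = 0.0153) and 2.43 (edgeR adjusted p = 0.000250). The 1337 longest genes, which include Bach2 with 9940 bases of exon as well as Bcl11a and Ebf1, were by median 0.24, 0.06, 0.10 and 0.20 log2 units above their group mean in the replicate 1 libraries of 1MO CLPs, 3MO CLPs, 1MO MPPs and 3MO MPPs. Replicate 2 of the 1MO MPPs was 0.10 above its group mean as well. Replicate 3 of the MPPs lay at -0.21 at 1MO and -0.19 at 3MO. The part of this length pattern in the values of Bach2, Bcl11a and Ebf1 was not tested.

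Of the early lymphoid and HMG-box factors, Bcl11a was the most abundant member and nearly equal between the populations. It was at 514, 472 and 448 CPM in 1MO CLPs against 461, 466 and 386 CPM in 1MO MPPs, and at 490.2, 515 and 449.9 CPM in 3MO CLPs against 463, 411 and 362 CPM in 3MO MPPs. CLP and MPP libraries overlapped at both ages. The log2 fold change of Bcl11a was 0.13 with a 95% interval of -0.18 to 0.44 at 1MO, and 0.24 with an interval of -0.07 to 0.54 at 3MO (edgeR adjusted p = 0.818 and 0.431). Lef1 was the least abundant, at 2.16, 0.198 and 0.952 CPM in 1MO CLPs and at 0.404, 0.830 and 0.0791 CPM in 3MO CLPs. It had 4 counts in 1 library of 1MO MPPs and 0 counts in the other 5 MPP libraries. The 1MO difference of Lef1 did not pass the test (log2 fold change 3.48 ± 1.84, edgeR adjusted p = 0.416), nor did the 3MO difference, in which Lef1 was at least 5.46-fold higher in CLPs against the floor of 3 counts over the 3 MPP libraries (edgeR adjusted p = 0.206).

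Counted by ranges alone, 6 of the 9 members had all 3 CLP libraries above all 3 MPP libraries at 1MO and 5 of 9 at 3MO, where 11.1% and 10.1% of all genes did. Pou2af1, counted at 1MO, and Lef1, counted at 3MO, passed the filter through CLP libraries alone, and Pax5 and Spib, counted at both ages, needed CLP libraries to pass it. The place of these 4 above MPPs was thus partly set by the filter, and the counts are a description.

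**Figure D2:**
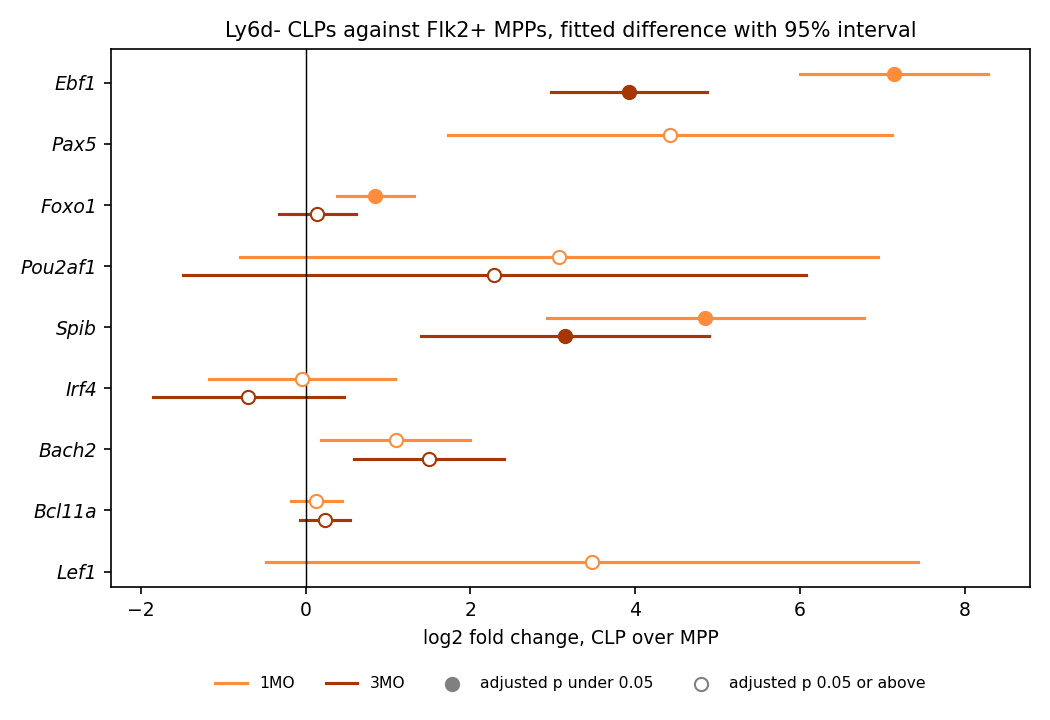
Fitted log2 fold change of each member, CLP over MPP (horizontal axis), at 1MO and at 3MO, with lines for the unadjusted 95% interval and filled points for an edgeR adjusted p under 0.05. Pax5 and Lef1 are not drawn at 3MO because all 3 MPP libraries held 0 counts; Ebf1 had the highest fold change at both ages among those drawn, and its 1MO and 3MO intervals did not overlap.

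The genes that act with the members were described by lists. Of 20 upstream regulators and partners, all tested, 6 were called higher and 1 lower in CLPs at 1MO, and 6 higher and 0 lower at 3MO, with list medians of 0.41 and 0.28 on the log2 scale, where all genes tested had -0.02 and -0.03. Called at both ages with the largest average fold changes were Il7r, Irf8, Ets1 and Ikzf1. Mef2c was called at both ages as well, Tcf4 at 1MO and Foxp1 at 3MO alone, and the gene called lower was Gfi1 at 1MO (log2 fold change -1.09, edgeR adjusted p = 0.0271), and these 4 are named after their values were seen. Il7r encodes the IL-7 receptor chain, which is commonly part of the CLP gate, so that its difference is not an independent result. It had a mean of 371 ± 37.6 CPM in 1MO CLPs and 10.4 ± 7.14 CPM in 1MO MPPs. Irf8, a relative of Irf4, was 11.9-fold higher in CLPs at 1MO and 8.52-fold higher at 3MO (edgeR adjusted p = 1.49e-07 and 8.92e-07). Ets1 was 2.67-fold and 2.17-fold higher, and Ikzf1, which encodes Ikaros, was 1.78-fold and 1.77-fold higher (edgeR adjusted p at most 0.00152 for both genes at both ages).

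Of 22 B-lineage target genes, 17 were tested, and 6 were called higher in CLPs at 1MO and 7 at 3MO, with none called lower and list medians of 2.64 and 2.58 on the log2 scale (2.42 at 3MO with the 1 gene at 0 counts in 3MO MPPs at its lower bound). Of all genes tested, 2.57% and 2.73% were called higher. Genes such as Blk, Cecr2, Cd22 and Cd79a could pass the filter only with their CLP libraries. The counts and medians of this list were thus partly set by the filter and are a description. Blnk, an adaptor of pre-B and B cell receptor signals, was at 79.3, 92.0 and 97.7 CPM in 1MO CLPs and 3.38, 5.16 and 3.62 CPM in 1MO MPPs. Rag1, the recombinase subunit, was at 266, 197 and 326 CPM in 1MO CLPs and 13.4, 10.8 and 12.6 CPM in 1MO MPPs. Blk, a B-cell kinase of the Src family, was at 18.5, 13.4 and 18.3 CPM in 1MO CLPs and at 0, 0 and 0.121 CPM in 1MO MPPs. The Blk call at 3MO was lost without 3MO CLP replicate 3 (edgeR adjusted p = 0.0921) or 3MO MPP replicate 2 (0.0720), and with only the 6 libraries compared (0.0906). Cecr2, a chromatin remodelling gene, averaged 11.8 ± 3.89 CPM in 1MO CLPs and 0.658 ± 0.423 CPM in 1MO MPPs (SD, n = 3). Vpreb1, a surrogate light chain gene, was at most 1.14 CPM in any library, Igll1, its partner, at most 0.404 CPM and Ms4a1, which encodes CD20, at most 0.0603 CPM. Other genes of the list were well above these, with Cd79b at up to 19.4 CPM, Cd22 at up to 23.0 CPM and Cd72 at up to 89.1 CPM.

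Of 8 inhibitors of the programme, 5 were tested, 2 were called lower in CLPs at 1MO and none at 3MO, with list medians of -0.90 and -0.69 on the log2 scale. The 2 called, named after their values were seen, were Cebpa, a myeloid factor (log2 fold change -1.17, edgeR adjusted p = 0.00697), and Zfp521, an antagonist of Ebf1 (-0.90, edgeR adjusted p = 0.0495). Of 19 family relatives of the members, 12 were tested, with 2 called higher and 1 lower at 1MO and 2 higher and 0 lower at 3MO, and list medians of -0.25 and -0.36 on the log2 scale. Called higher at both ages were Irf8 and Tcf7, a relative of Lef1, and the relative called lower, named after its values were seen, was Foxo3 at 1MO (log2 fold change -0.73, edgeR adjusted p = 0.00745). Tcf7 was at 30.6, 24.1 and 20.8 CPM in 1MO CLPs and 0.402, 0.988 and 1.02 CPM in 1MO MPPs (log2 fold change 4.95 ± 0.708, edgeR adjusted p = 0.000403). The closest relatives of Ebf1 and Pax5 were nearly silent, with Ebf2 at 0 counts in all 12 libraries and Ebf3, Ebf4, Pax2 and Pax8 at no more than 1.17 CPM in any.

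**Figure D3:**
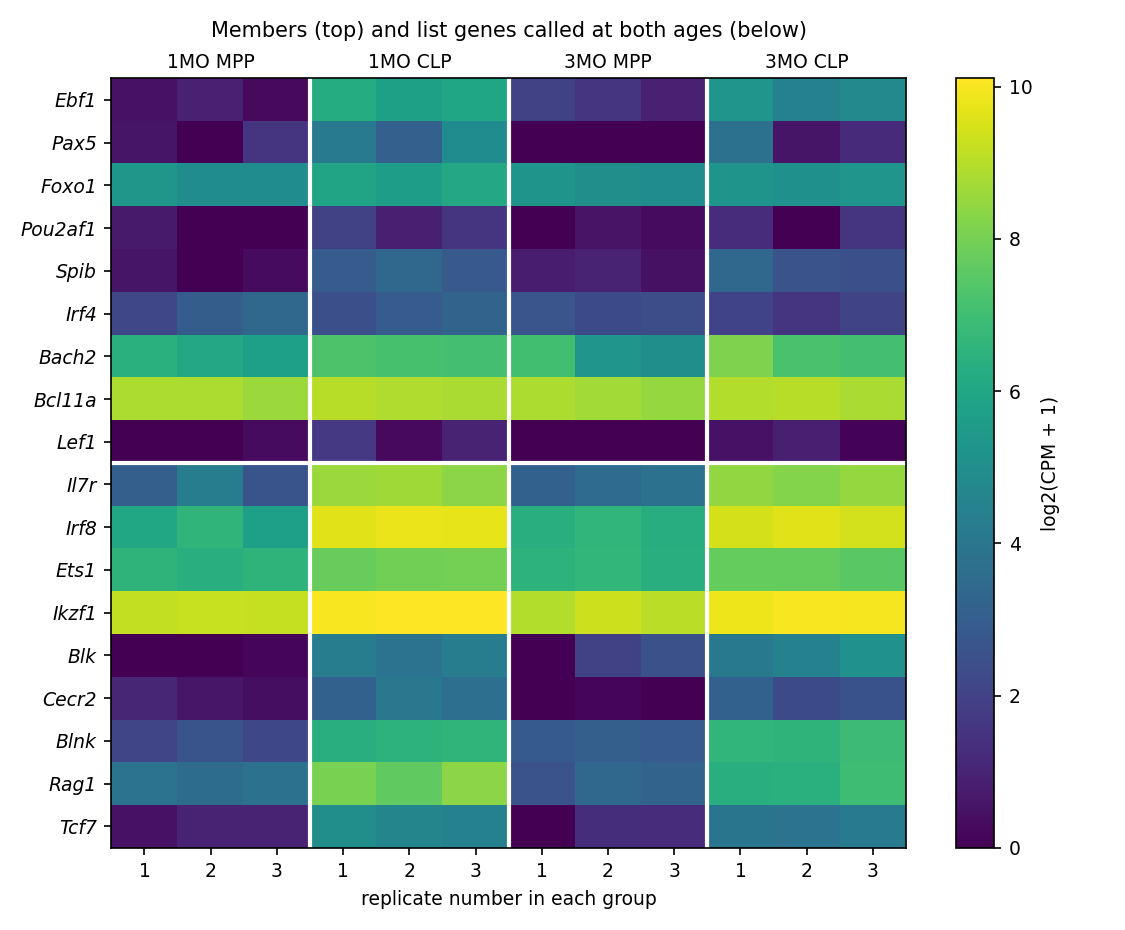
Level as log2(CPM + 1) (colour) of the 9 members (top rows) and of 9 listed genes called higher in CLPs at both ages (lower rows) in the 12 libraries (columns, by group and replicate number). Il7r, Irf8, Blnk and Rag1 were higher in every CLP library than in any MPP library, as were Ebf1 and Spib.

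The second comparison asked whether the members change from 1MO to 3MO within a cell type. In Ly6d- CLPs 0 of 9 members passed the adjusted threshold in edgeR's quasi-likelihood test, where 0.0748% of all genes were called (10 genes), and DESeq2's Wald test also called 0 members. At an unadjusted p under 0.05, 3 members were lower at 3MO and none higher, where 2.94% of all genes were lower and 2.96% higher. These 3 were Ebf1, Foxo1 and Irf4, which were also the members with all 3 of the 3MO CLP libraries below the 1MO libraries, as 6.13% of all genes had. Of the 9 members, 7 had a fitted log2 fold change below 0, as 6844 of the 13367 genes did.

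The mean level of Ebf1 was 63.7 ± 11.8 CPM in 1MO CLPs and 28.4 ± 8.92 CPM in 3MO CLPs (SD, n = 3). The log2 fold change of -1.17 ± 0.381 had an unadjusted p of 0.00777 and an edgeR adjusted p of 0.670, and it stayed between -1.44 and -0.98 when any 1 library was left out. Foxo1 averaged 58.5 ± 9.53 and 35.6 ± 2.49 CPM, with a log2 fold change of -0.72 ± 0.218 (edgeR unadjusted p = 0.00489, adjusted p = 0.598). Irf4 averaged 6.47 ± 1.86 and 2.77 ± 0.723 CPM, with a log2 fold change of -1.23 ± 0.546 (edgeR unadjusted p = 0.0396, adjusted p = 0.836). The replicates of Pax5 overlapped between the ages (log2 fold change -1.93, 95% interval -4.31 to 0.46). For Bcl11a the interval was narrow, -0.29 to 0.33, around a log2 fold change of 0.02. For Bach2 the log2 fold change of 0.40 rested on replicate 1 of the 3MO CLPs and was -0.019 without it. The log2 fold changes of Spib (-0.26), Pou2af1 (-0.75) and Lef1 (-1.29) had intervals that spanned 0 widely.

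Col1a1, a fibrillar collagen gene of bone stroma, moved with age in the same CLP libraries, from 400.0, 134 and 136 CPM at 1MO to 1.92, 0 and 0 CPM at 3MO, and was called lower (edgeR adjusted p = 0.0337). Ebf1 is also known to be expressed by marrow stromal cells. Of the 9 stroma and endothelium markers, 7 were tested and 2 were called lower in 3MO CLPs, Col1a1 and Col1a2, and the summed level of the list was 301 to 680.1 CPM at 1MO and 94.1 to 121 CPM at 3MO. Cxcl12, a stromal chemokine gene, was at 6.12, 3.16 and 4.63 CPM at 1MO and 1.31, 0 and 1.19 CPM at 3MO. Of the 7 markers tested, 4 had all 3MO CLP libraries below the 1MO libraries. Pdgfrb made up most of the 3MO sum and overlapped between the ages, at 99.3, 113 and 89.3 CPM and then 97.5, 121 and 84.7 CPM. Col3a1 was at most 2.16 CPM in any CLP library, while Lepr was at 0.360, 0.198 and 0 CPM at 1MO and 0.303, 0 and 4.90 CPM at 3MO. Among the other lists, none of the 13 myeloid and none of the 5 NK and innate lymphoid markers tested was called with age in CLPs, with Ngp, a neutrophil granule gene, at 5.22, 10.2 and 8.63 CPM at 1MO and 10.3, 40.5 and 23.2 CPM at 3MO. The summed NK and innate lymphoid level was 51.3 to 61.3 CPM in 1MO CLPs and 71.8 to 96.6 CPM in 3MO CLPs. None of the 5 pro-B markers tested was called with age in CLPs, with 4 fitted below 0 and a list median of -1.41 on the log2 scale. The summed pro-B level was 94.8 to 125 CPM at 1MO and 111 to 134 CPM at 3MO. Ly6d was at 2.34, 7.26 and 6.35 CPM in 1MO CLPs and at 5.55, 3.32 and 1.03 CPM in 3MO CLPs. The part of these RNAs in the Ebf1 difference was not tested.

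In Flk2+ MPPs 0 of 9 members passed the adjusted threshold in edgeR's quasi-likelihood test, where 0.0224% of all genes did (3 genes), and DESeq2's Wald test called 0 as well. At an unadjusted p under 0.05, Ebf1 was higher and Pax5 lower at 3MO, where 2.06% of all genes were higher and 1.41% lower. The mean level of Ebf1 was 0.487 ± 0.356 CPM in 1MO MPPs and 1.91 ± 0.967 CPM in 3MO MPPs, with all 3 of the 3MO libraries above the 1MO libraries, as 3.96% of all genes had. Its log2 fold change of 2.06 ± 0.539 had an unadjusted p of 0.00162 and an edgeR adjusted p of 0.658, and rested on 16 counts at 1MO and 67 counts at 3MO. Pax5 had 37 counts in 1MO MPPs, 31 of them in replicate 3, and 0 in 3MO MPPs, which made it at least 9.78-fold lower at 3MO against the floor of 3 counts over the 3 libraries. Foxo1, Bach2 and Bcl11a had log2 fold changes of -0.01, -0.0031 and -0.09, with intervals of -0.48 to 0.45, -0.90 to 0.90 and -0.39 to 0.22. Irf4 was 0.58 lower on the log2 scale and Spib 1.44 higher, and both intervals included 0.

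Beside the Ebf1 levels in MPPs, genes of the CLP profile gave the following values in the same libraries. The MPP level of Il7r was 2.80% of the CLP level at 1MO and 3.06% at 3MO, that of Blnk 4.51% and 6.38%, that of Rag1 4.67% and 7.89%, and that of Siglech, a plasmacytoid dendritic cell marker, 4.46% and 5.72%. A share can rise through a lower CLP level. Rag1 averaged 12.3 ± 1.36 CPM in 1MO MPPs and 7.61 ± 2.36 CPM in 3MO MPPs, against 263 ± 64.8 and 96.5 ± 25.4 CPM in CLPs. In MPPs Siglech was at 4.74, 2.30 and 2.23 CPM at 1MO and 0, 5.04 and 4.54 CPM at 3MO. Blnk averaged 4.05 ± 0.968 and 6.65 ± 0.543 CPM in MPPs, and Il7r 10.4 ± 7.14 and 10.4 ± 2.53 CPM. Blk was at 0, 2.88 and 4.68 CPM in 3MO MPPs, while Ebf1 was highest in replicate 1, where Blk had 0 counts. Ngp was at 10.2, 11.7 and 5.48 CPM in 1MO MPPs and 22.6, 41.7 and 56.8 CPM in 3MO MPPs, and none of the 13 myeloid markers was called with age. The part of RNA from CLPs or other cells in the MPP values was not tested.

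**Figure D4:**
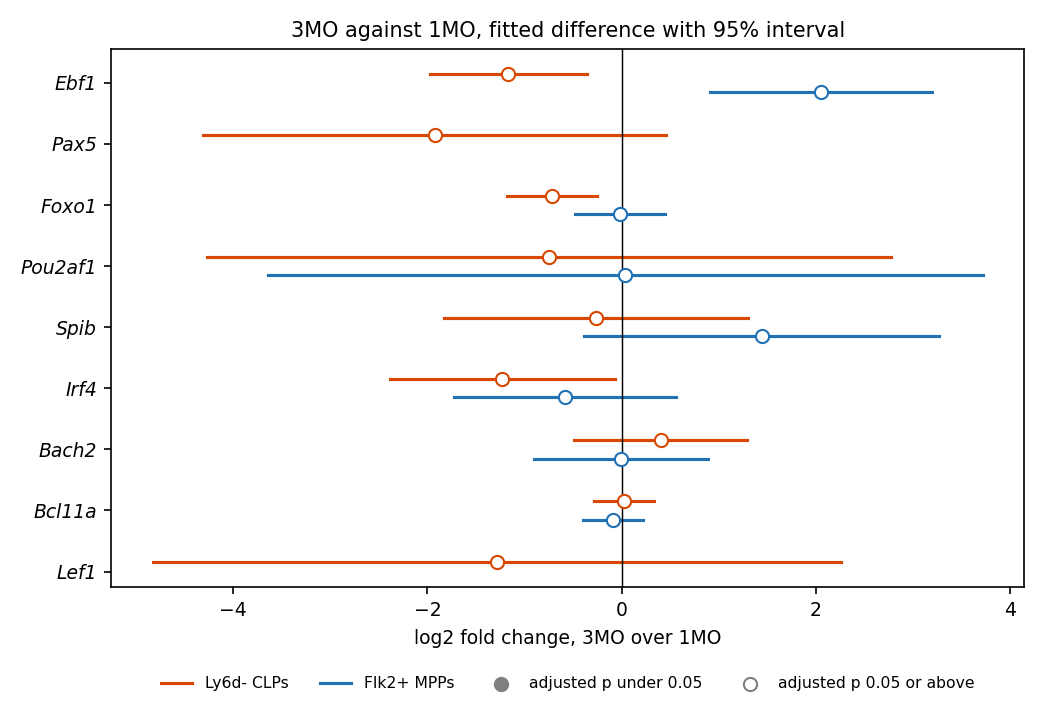
Fitted log2 fold change of each member, 3MO over 1MO (horizontal axis), in CLPs and in MPPs, with lines for the unadjusted 95% interval; open points mark an edgeR adjusted p of 0.05 or above, which held for every value drawn. Pax5 and Lef1 are not drawn in MPPs because all 3MO libraries held 0 counts, and Ebf1 lay below 0 in CLPs and above 0 in MPPs.

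The other lists held few changes with age. In CLPs none of the 20 upstream regulators was called, with 15 of 20 fitted below 0 and a list median of -0.12 on the log2 scale (-0.01 over all genes tested), and Spi1 and Ets1, the 2 with the smallest p, had log2 fold changes of -0.38 and -0.25. Of the 5 inhibitors tested none was called, and Cebpa averaged higher at 3MO (21.5, 27.6 and 20.6 CPM at 1MO and 34.0, 42.3 and 36.1 CPM at 3MO, log2 fold change 0.69 ± 0.236, edgeR adjusted p = 0.694). Zfp521 had a log2 fold change of 0.31. Of the 17 B-lineage target genes tested, Rag1 was called lower at 3MO (79.8, 83.9 and 126 CPM, log2 fold change -1.44 ± 0.249, edgeR adjusted p = 0.0428), and the list median was -0.21. The Rag1 call held only in the fits without 1MO CLP replicate 2, 3MO CLP replicate 3 or 3MO MPP replicate 1, and was lost in the other 9 fits that left out 1 library (edgeR adjusted p up to 0.306). Cd79a, a chain of the B cell receptor complex, was at 3.33, 1.83 and 5.65 CPM at 1MO and 0, 0.996 and 0.316 CPM at 3MO (edgeR adjusted p = 0.891). None of the 12 family relatives tested was called in CLPs, with a list median of -0.32, Foxo4 at a log2 fold change of -0.41, and Spic at 0 counts in 3MO CLPs and at most 0.571 CPM at 1MO.

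In MPPs edgeR's quasi-likelihood test called no gene of the 4 lists with age, while DESeq2's Wald test called Blk, at 0, 0 and 0.121 CPM at 1MO and 0, 2.88 and 4.68 CPM at 3MO (adjusted p = 0.00859), as did edgeR with no filter beyond 1 count (adjusted p = 0.000362). The list medians on the log2 scale were -0.08 for the upstream regulators, -0.22 for the inhibitors, 0.0041 for the B-lineage target genes and -0.04 for the family relatives, against -0.01 over all genes tested. The genes with the smallest p were Mef2c (-0.30) and Flt3 (0.20), Cebpb (-0.60) and Id2 (-0.55), and Irf8 (0.27) and Foxo3 (-0.19), with log2 fold changes in parentheses. Among the target genes they were Blk (edgeR adjusted p = 0.363) and Cecr2, which was at 1.13, 0.549 and 0.301 CPM at 1MO and 0, 0.144 and 0 CPM at 3MO (edgeR adjusted p = 0.876).

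The third comparison asked whether the difference between CLPs and MPPs itself differed between the ages. For Ebf1 the interaction was -3.22 ± 0.659 on the log2 scale, with a 95% interval of -4.62 to -1.82, since the gap of 7.14 at 1MO was 3.92 at 3MO. Its unadjusted p was 0.000185, the edgeR adjusted p was 0.825, and edgeR's quasi-likelihood test called 0% of all genes, although 429 genes (3.21%) had an unadjusted p under 0.05. DESeq2's Wald test called 6 genes, with Ebf1 among them (adjusted p = 0.00503), and so did edgeR with no filter beyond 1 count (adjusted p = 0.00528). The interaction of Ebf1 stayed between -3.86 and -2.75 when any 1 library was left out. Foxo1 was the other member with an unadjusted p under 0.05 (interaction -0.70 ± 0.309, edgeR unadjusted p = 0.0375, adjusted p = 1.00). The interaction of Bcl11a was 0.11, with an interval of -0.33 to 0.54.

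Genes with the profile nearest to each member over the 12 libraries were found by the root mean square (RMS) difference of centred log2 CPM among 10457 or 10458 genes with a mean of at least 5 CPM. The libraries fall into the same 4 groups for every gene, so these are descriptions of shared patterns. Nearest to Ebf1 were Il7r, Blnk and Stum, with RMS differences of 0.83, 0.96 and 1.06 log2 units against an SD of 2.94 for Ebf1 itself. Nearest to Pax5 were Rag1 (1.41), Gm34680 (1.60) and Colq (1.68), and nearest to Foxo1 were Mastl (0.19), Trim59 (0.22) and Sh3kbp1 (0.22). Near to Spib were Gfra1 (0.62) and Cox6a2 (0.62), which is a plasmacytoid dendritic cell marker. Pou2af1 was nearest to Oaf (0.86), Kynu (0.97) and Rgcc (1.05), and Irf4 to 1110038F14Rik (0.36), Dok2 (0.38) and Pld3 (0.39). Bach2 was nearest to Gria3 (0.37), Rpgrip1 (0.38) and Pde3b (0.44), Bcl11a to Pdzd8 (0.08), Rassf2 (0.08) and Mthfd1l (0.08), and Lef1 to St3gal6 (0.67), A430088P11Rik (0.71) and Tifab (0.76). The RMS differences grow with a gene's own spread, so they rank genes for 1 member and do not compare members.

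The sorted labels were checked against marker lists. The CLP list holds genes of the sort gates, such as Il7r, Ly6d and Flt3, which encodes Flk2, so the check is not independent of the sort. Of 6 CLP markers, 3 were called higher in CLPs at each age, and the summed level was 4149 to 5149 CPM in 1MO CLPs and 1637 to 1787 CPM in 1MO MPPs. Of 10 MPP and HSC markers, 8 were called lower in CLPs at 1MO and 9 at 3MO, and Hlf was at 33.1 to 47.4 CPM in 1MO CLPs and 519 to 657 CPM in 1MO MPPs. Ly6d itself was at most 7.26 CPM in any library. Of the 7 pro-B markers, 5 were tested and 1, Blnk, was called higher in CLPs at each age, with the rest at or below 19.4 CPM in every library. Of the 10 mature B and plasma markers, 8 were tested and 3 were called higher at each age, namely Ighm, Ighd and Sdc1, while Ms4a1 was near 0 as above. Of the 11 plasmacytoid dendritic markers, 10 were tested, with 6 called higher in CLPs at 1MO and 4 at 3MO, and Siglech was at 51.7 to 76.5 CPM in CLPs and 0 to 5.04 CPM in MPPs. Spib is also expressed by plasmacytoid dendritic cells, and the part of such cells in the Spib difference was not tested. Of the 10 T markers, 3 were tested and 1, Lck, was called higher in CLPs at each age, with Cd3e, Cd3d and Cd3g at most 0.908 CPM. Of the 13 myeloid markers, all tested, 2 were called higher in CLPs at 1MO (Elane and Csf1r), and 1 higher and 1 lower at 3MO (Csf1r and Prtn3). Of the 7 stroma and endothelium markers tested, Col1a2 was called higher in CLPs at 1MO and lower at 3MO. Of the 9 NK and innate lymphoid markers, 5 were tested and 1, Il18r1, was called higher in CLPs at each age. The 10 erythroid markers were called in no comparison, and their summed level was 105 to 170.1 CPM in the replicate 3 libraries of the 4 groups and 20.0 to 37.9 CPM in the other 8 libraries.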

How the data were processed

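Bone marrow Ly6d- CLPs and Flk2+ MPPs of wild-type C57BL6/J mice were profiled by bulk RNA-seq of polyadenylated RNA with a directional library kit. The authors deposited 1 table of estimated counts per gene, not normalized, for 32285 genes and 12 libraries. Per the labels, the submitters' processing used FastQC, UMI-tools, Trim Galore, STAR, Salmon and DESeq2 on mm10, and the study's methods name an nf-core workflow. The deposited table is described as length-scaled by its own name. The study's methods give paired-end or single-end sequencing without assigning libraries to either, and its part in the values was not tested. Counts scaled by transcript length are estimates, so low values carry assignment error as well as counting error. The annotation release was not given in the sources used here. Each column matched 1 sample, and 0 columns were left unmatched. Groups were taken from the labels, with 3 repeats each described as independent experimental repeats. No pair of replicates was identical, and all pairs of a group differed by more than counting noise.

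The estimated counts were rounded to whole numbers and analysed in R 4.3.3 with edgeR 4.0.16. Genes were kept by filterByExpr with a minimum count of 10, which here means 0.757 CPM in at least 3 libraries, and 13367 genes remained. Libraries were normalized by TMM. A single quasi-likelihood model of the 4 groups gave both age comparisons, both cell type comparisons and the interaction, with Benjamini-Hochberg adjustment over all genes and a threshold of 0.05. Intervals of log2 fold changes are unadjusted at the 95% level. With 3 libraries against 3 an exact permutation test of 1 gene cannot give p under 0.1, so none was used. Where a group held 0 counts, a fold is a lower bound against 3 counts over the group, and bounds cover counting error only.

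The members and the gene lists were chosen with earlier results of these data known, and lists are described by counts and medians without a test of the list. All 9 members were named throughout. From the 4 lists of upstream regulators, inhibitors, target genes and relatives, the text names the 4 genes called higher and the 2 called lower at both ages with the largest average log2 fold change, and the 2 genes with the smallest p in each age comparison. Nearest profiles used log2 CPM with a prior count of 2 and a minimum mean of 5 CPM. A few values of single genes are not reported here. Gene positions and exon lengths came from GENCODE M21 on GRCm38, to which 32235 identifiers matched, and promoter windows came from RefSeq on GRCm38.p6. The model was checked on simulated counts. Figures were drawn in Python 3.11.15 with matplotlib 3.10.9.

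Alternatives tried were DESeq2 size factors within edgeR, library totals without TMM, no filter beyond 1 count, at least 10 counts in every library, DESeq2 1.42.0 with its Wald test, a replicate block, only the 6 libraries compared, and each library left out in turn. Leaving out all 4 libraries of a replicate number was added after seeing the data.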

Additional observations from a re-analysis of the deposited data

Results flagged for a closer look

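Ebf1 levels lay apart between the ages in opposite directions in the 2 cell types, although neither age difference passed edgeR's test (adjusted p = 0.670 in CLPs and 0.658 in MPPs). Every 3MO CLP library was below every 1MO CLP library (38.2, 20.8 and 26.3 against 76.3, 53.0 and 61.9 CPM), while every 3MO MPP library was above every 1MO MPP library (2.85, 1.94 and 0.921 against 0.402, 0.878 and 0.181 CPM). Of all genes, 6.13% had 3MO CLP libraries all below the 1MO libraries and 3.96% had 3MO MPP libraries all above, and the MPP values rest on 16 counts at 1MO and 67 at 3MO. The difference between these age effects was -3.22 on the log2 scale, and it did not pass edgeR's quasi-likelihood test over all genes (adjusted p = 0.825). DESeq2's Wald test gave an adjusted p of 0.00503. The MPP level of Ebf1 was 0.764% of the CLP level at 1MO and 6.70% at 3MO. The same share was 2.80% and 3.06% for Il7r, 4.51% and 6.38% for Blnk, 8.39% and 11.7% for Irf8, 4.67% and 7.89% for Rag1, 14.8% and 16.5% for Rag2, 16.0% and 22.9% for Dntt, and 4.46% and 5.72% for Siglech. Among the other members it was 3.21% and 11.2% for Spib, 55.7% and 90.7% for Foxo1, 11.3% and 19.0% for Pou2af1, and 103% and 162% for Irf4. It was 46.8% and 35.5% for Bach2, 91.5% and 84.9% for Bcl11a, 4.35% and 0% for Pax5, and 7.29% and 0% for Lef1. The 0% shares stand for 0 counts in 3MO MPPs and are not exact levels, and the 7.29% of Lef1 rests on 4 counts.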

How the results depend on the processing

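With alternatives that kept all 12 libraries or only those compared, 277 of 300 log2 fold changes of members kept their direction and their side of the threshold, 14 became significant, 2 lost significance and 7 changed sign. Ebf1 was called higher in CLPs at both ages in all 12 fits without 1 library. The sign changes were of values near 0: Bcl11a with age in CLPs (-0.0012 with no filter), Foxo1 with age in MPPs (0.0014 with at least 10 counts in every library), Bach2 with age in MPPs (0.014 with DESeq2 size factors, 0.017 with at least 10 counts in every library, 0.018 with DESeq2, 0.0021 with only 6 libraries) and Irf4 between cell types at 1MO (0.029 with the block by age and number). With no filter, 46 genes changed with age in CLPs, 26 in MPPs and 6 by interaction, with 5 members (of 903 of 17730 genes) called between cell types at 1MO and 1, Ebf1, by interaction. With at least 10 counts in every library, where Ebf1, Pax5, Spib, Pou2af1 and Lef1 were not tested, these were 4 genes and 1 gene with age, and 1 member at each age between cell types (Foxo1 at 1MO, of 695 of 10621 genes, and Bach2 at 3MO, of 738). DESeq2 called 57 and 32 genes with age, 1175 and 1371 between cell types, and 6 by interaction, of which 1 was a member. Only the 6 libraries compared gave 4 genes with age in CLPs, 5 members at 1MO (of 900 of 12707 genes), and 435 genes and 1 member at 3MO. Apart from the smaller sets of genes or libraries, the cause was not tested. Rag1 with age in CLPs lost its call with at least 10 counts in every library (edgeR adjusted p = 0.0584) and with only 6 libraries (0.110).

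The replicate numbers were not used to pair samples in the main model, since no label states that a number marks a shared mouse or day. The sample numbers in the labels do run in order of replicate number, with CLPs and MPPs of the same age and number adjacent. Whether same-numbered libraries share a mouse or day is thus not known. The calls of Bach2 at both ages and of Pax5 at 1MO depended on this choice. Deviations of same-numbered libraries from their group means correlated at -0.098 to 0.378 (median 0.10, 18 pairs, 10458 genes), against -0.44 to 0.279 (median -0.07, 36 pairs) for other numbers. Replicate 3 libraries share high erythroid markers and replicate 1 libraries the highest Bach2 level, as given above. With the replicate block by number, 11 and 3 genes changed with age, and 915 and 1007 differed between cell types at 1MO and 3MO. With the block by age and number these were 836 and 921. Both the block by number and the block by age and number called 5 members at 1MO, adding Bach2 (edgeR adjusted p = 0.0174 and 0.00424) and Pax5 (0.0115 and 0.00404). At 3MO they called 4 members and 3 members, with Bach2 added in both (edgeR adjusted p = 0.00179 and 0.000258) and Spib lost in the block by age and number (edgeR adjusted p = 0.0618). Ebf1 by interaction stayed above the threshold with both blocks (edgeR adjusted p = 0.359 and 0.380).

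Leaving out a library, or the 4 libraries of a replicate number, gave 1 to 10 genes with age in CLPs, 1 to 5 in MPPs, 224 to 887 between cell types at 1MO, 233 to 881 at 3MO and 0 to 1 by interaction. Members called ranged from 1 to 5 at 1MO and from 1 to 3 at 3MO, with 0 in both age comparisons and the interaction in every such fit. The lowest counts between cell types came from leaving out a replicate number, which removes 4 libraries. Pax5 was called at 1MO without 3MO CLP replicate 1 (edgeR adjusted p = 0.0214), 3MO CLP replicate 2 (0.0330) or 3MO MPP replicate 1 (0.0365). Fold changes whose sign changed ranged, with age in CLPs, from -0.72 to 0.12 (Spib), -0.019 to 0.59 (Bach2) and -0.032 to 0.078 (Bcl11a). With age in MPPs they ranged from -0.11 to 0.16 (Foxo1), -1.38 to 5.31 (Pou2af1) and -0.94 to 0.33 (Bach2), between cell types at 1MO from -0.36 to 0.32 (Irf4), and by interaction from -5.82 to 0.87 (Pou2af1), -0.016 to 1.34 (Bach2) and -1.29 to 3.81 (Lef1). Lef1 with age in MPPs, with 0 counts in every 3MO MPP library, reached 0 but did not change sign (-4.09 to 0). Pou2af1 and Lef1 had 136 and 67 counts over the 12 libraries, which limits what can be said of them.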
